A study of Mus musculus with 6 samples.

Results

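Transcripts of nucleophosmin and of 7 genes that work with it in the nucleolus or drive it were followed in human leukemic cells: NPM1, NPM3, NCL, FBL, NOP56, NOP58, WDR43 and MYC. They were taken by symbol from a table of 13892 human genes, and all 8 were listed. The cells came from bone marrow of NSG mice, an immunodeficient strain, that had become moribund with acute myeloid leukemia. Each of the 3 mice had received human hematopoietic stem cells from its own transduction with NPM1c, the leukemia-associated mutant of nucleophosmin, and GFP stood in for NPM1c expression. Leukemic stem cells (LSC) were sorted as GFP+, CD33+ and CD123+ (3 libraries), and bulk leukemic cells as GFP+ and CD33+ with no statement on CD123 (3 libraries). Both populations therefore carry NPM1c, and neither is a control without it. LSC and bulk libraries with the same replicate number came from 1 mouse. The promoter that drives NPM1c and the ages of the mice are not given in the sources used here.

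The nucleolus is where ribosomal RNA is transcribed by RNA polymerase I, cut, modified and packed with ribosomal proteins. NPM1 is an abundant histone chaperone and scaffold of its outer, granular part, and the NPM1c mutation adds a nuclear export signal that moves the protein to the cytoplasm. Fibrillarin (FBL) with NOP56 and NOP58 forms the box C/D ribonucleoprotein that methylates ribosomal RNA, WDR43 belongs to the early complex that assembles on the small-subunit precursor, and MYC is the transcription factor best known for raising the output of this whole pathway.

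The libraries held 10669560 to 14933494 reads for LSC and 11420127 to 13148257 for bulk. Of these, 28.5% to 45.6% in LSC and 27.2% to 70.0% in bulk were assigned to the 10 MTRNR2L genes, which resemble mitochondrial ribosomal RNA. Bulk replicate 1 had the highest share and the smallest normalized size, so that 3 reads corresponded to 0.514 CPM (reads scaled to a common, normalized library size) there and to 0.190 to 0.254 CPM in the other libraries. The gate markers were checked first. IL3RA, which encodes CD123, had 48.0 to 139.5 CPM in LSC and 1.54 to 2.37 CPM in bulk, and CD33 had 1.17 to 8.05 CPM in LSC and 4.45 to 13.1 CPM in bulk. All 10 listed markers of plasmacytoid dendritic cells were called higher in LSC (9 with voom), against 2.71% of all genes tested. IL3RA, the gene of the gate, is 1 of these 10 and counts in their sum, so it is not separate from the sort. The sum was 1503 to 2846 CPM in LSC and 120 to 316 CPM in bulk, and none of the markers was at 0 in either group.

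Of the 8 genes, MYC and NCL were lower in LSC than in bulk and passed the test over all genes. NPM1, NOP58 and WDR43 were lower in LSC in 3 of 3 mice. They did not pass in the same model, and did when the mouse entered it as a block. FBL, NOP56 and NPM3 did not pass with or without the block. Without the block, 2 of 8 were called lower, against 1.33% of the 13755 genes tested, and 0 of 8 higher, against 2.71%. At an unadjusted p under 0.05 in limma, 5 members were lower, as were 10.1% of all genes, and none was higher, against 10.2%. None was higher at an adjusted p under 0.05 with voom. With the block, 5 of 8 were called lower, against 7.71% of all genes (8.25% were called higher). The LSC and bulk values of those 5 did not overlap, which held for 11.9% of all genes in that direction and 13.2% in the other. The members were chosen with results of these libraries known, so these counts describe the list and are not separate support. Their median log2 difference was -1.14, that of all genes tested -0.00.

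**Figure D1:**
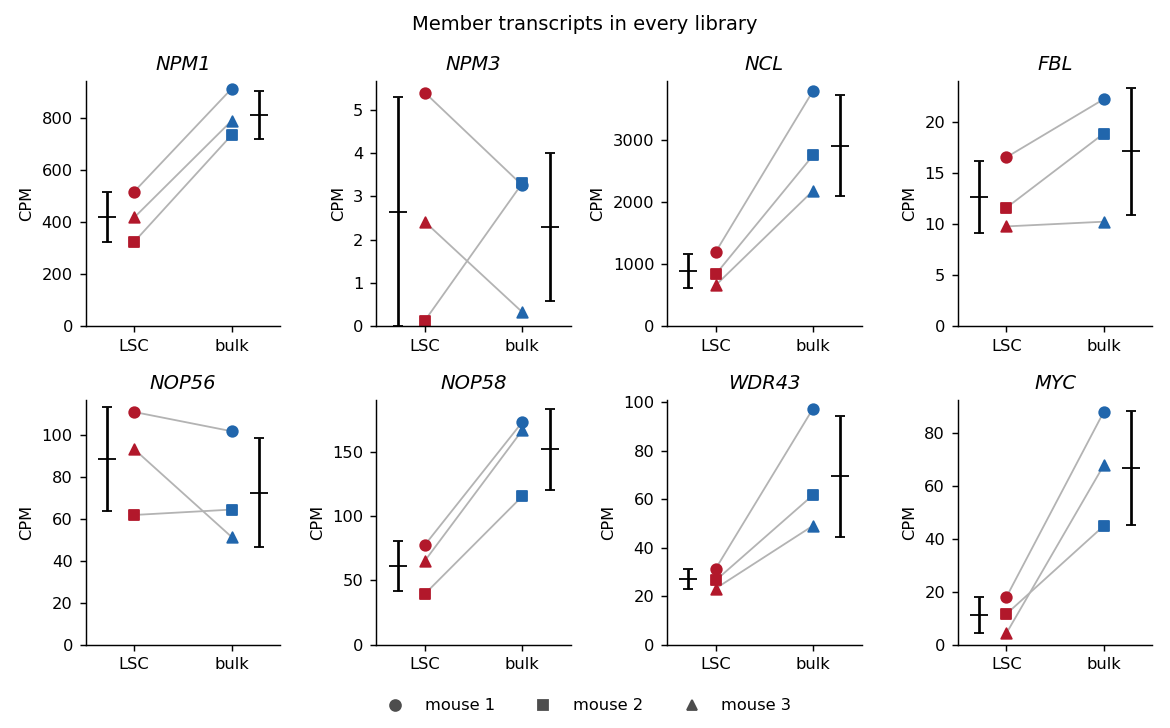
Expression of the 8 genes in CPM (vertical axes, each from 0) in LSC (left, red) and bulk (right, blue) libraries, with a grey line joining the libraries of 1 mouse and black bars giving the mean and SD of 3 libraries. NPM1, NCL, NOP58, WDR43 and MYC have every LSC library below every bulk library, while NPM3, FBL and NOP56 overlap.

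NPM1 had 516, 323 and 417 CPM in LSC replicates 1, 2 and 3, against 911, 733 and 788 CPM in bulk replicates 1, 2 and 3. The highest LSC library lay below the lowest bulk library. Means were 419 ± 96.4 CPM in LSC and 811 ± 91.2 CPM in bulk (SD, n = 3 each). The log2 difference, LSC minus bulk, was -0.97 (SE 0.28, 95% interval -1.59 to -0.35, limma adjusted p = 0.0879), about 1.96-fold lower in LSC. Once mice were blocked it passed (adjusted p = 0.00886), and the 3 mice differed little from each other, at -0.82, -1.18 and -0.92. On 2 mice the blocked call was lost without mouse 1 (adjusted p = 0.0506) and without mouse 2 (0.0880). A blocked fit on 2 mice leaves little spread within a gene, and limma then takes most of its variance from other genes. Such p-values, here and below, do not measure replication over mice. Quantile normalization alone also brought NPM1 past the threshold (log2 difference -0.78, adjusted p = 0.0363). NPM1 took 0.0636% to 0.0860% of LSC reads outside the MTRNR2L rows and 0.129% to 0.155% of bulk reads. Reads of the introduced NPM1c and of the cells' own NPM1 share nearly all of their sequence, and NPM1 has many processed pseudogenes, so the row cannot be divided between these sources. In sorted bulk RNA, fewer cells that express a gene and less of its RNA per cell cannot be told apart.

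NPM3, the other nucleoplasmin family member in the table and a binding partner of NPM1, had few reads. It had 73, 2 and 33 reads in LSC replicates 1, 2 and 3, and 19, 39 and 5 reads in bulk replicates 1, 2 and 3. As levels these were 5.39, 0.127 and 2.41 CPM in LSC and 3.25, 3.30 and 0.320 CPM in bulk. Neither population was the lower one throughout: LSC was above bulk in mice 1 and 3 and below it in mouse 2. The 2 reads of LSC replicate 2 have an exact 95% counting interval of 0.242 to 7.22 reads, which covers counting error only. The log2 difference of -0.31 had an interval of -3.52 to 2.89 (limma adjusted p = 0.921), and it was 1.23 without LSC replicate 2, 0.23 without bulk replicate 1 and 0.24 without bulk replicate 2. The counting intervals of LSC replicate 1 (57.2 to 91.8 reads) and LSC replicate 2 did not overlap. Libraries of 1 group thus differed by more than the counting error of independent reads, which amplified reads are not. No difference between the groups could be told from that spread.

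NCL encodes nucleolin, an RNA-binding phosphoprotein that acts in ribosomal RNA transcription and in the first steps of its processing. Its levels were 1192, 833 and 656 CPM in LSC replicates 1, 2 and 3 and 3790.4, 2750.3 and 2181 CPM in bulk replicates 1, 2 and 3. Each LSC library held well under the level of its bulk partner, and the mice kept the same order in both populations. NCL averaged 894 ± 273 CPM in LSC and 2907 ± 816 CPM in bulk (SD, n = 3 each), 3.27-fold lower in LSC. The log2 difference was -1.71 (SE 0.33, interval -2.46 to -0.96, limma adjusted p = 0.026, and 0.000571 with the block). Within mice 1, 2 and 3 it was -1.67, -1.72 and -1.73, with a closer spread over mice than for the other 7 genes. NCL took 0.121% to 0.199% of LSC reads outside the MTRNR2L rows, against 0.356% to 0.647% of bulk reads. The unblocked call was lost without LSC replicate 2 (adjusted p = 0.0611), LSC replicate 3 (0.120), bulk replicate 1 (0.0929) or bulk replicate 2 (0.0622). It was also lost without any 1 mouse, and with eBayes run without a trend (0.0835). On 2 mice the blocked call held, at an adjusted p of 0.00678, 0.0148 and 3.97e-11 without mouse 1, 2 and 3. These values rest mostly on variance shared over genes and do not measure replication of NCL over mice. The log2 difference stayed at -1.94 to -1.40 under every alternative run.

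Of the 3 members from the box C/D ribonucleoprotein, NOP58 passed with the block, and NOP56 and FBL did not. NOP58 had 77.4, 39.4 and 65.1 CPM in LSC replicates 1, 2 and 3 and 173, 115 and 167 CPM in bulk replicates 1, 2 and 3. Its groups did not overlap, with a log2 difference of -1.35 (SE 0.33, limma adjusted p = 0.0585, and 0.00379 with the block). The unblocked value sat close to the threshold and passed under 6 other choices of scaling, pseudocount or filter, at an adjusted p of 0.0348 to 0.0464. On 2 mice the blocked call of NOP58 held, at an adjusted p of 0.0267, 0.0495 and 2.10e-06 without mouse 1, 2 and 3, with the limit given for NPM1. NOP56, which pairs with NOP58 as the scaffold of the same particle, had 111, 61.9 and 93.3 CPM in LSC and 102, 64.4 and 51.4 CPM in bulk, in the order of the replicates. These groups overlapped, and the log2 difference was 0.31 (interval -0.49 to 1.10, limma adjusted p = 0.662). FBL, the methyltransferase itself, had 16.6, 11.6 and 9.77 CPM in LSC and 22.3, 18.9 and 10.2 CPM in bulk. FBL was lower in LSC in 3 of 3 mice, as were 25.8% of all genes (27.3% were higher in all 3), but by a log2 difference of only -0.07 in mouse 3. Its overall difference was -0.40 (interval -1.33 to 0.54, limma adjusted p = 0.627).

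WDR43 had 31.3, 26.4 and 23.1 CPM in LSC replicates 1, 2 and 3, against 97.4, 61.7 and 49.1 CPM in bulk replicates 1, 2 and 3. The LSC libraries were close to each other, and the bulk libraries spread more widely above them. Means were 26.9 ± 4.09 CPM in LSC and 69.4 ± 25.1 CPM in bulk (SD, n = 3 each). The log2 difference was -1.32 (SE 0.34, limma adjusted p = 0.0667, and 0.00826 with the block), at -1.64, -1.22 and -1.09 in mice 1, 2 and 3. On 2 mice the blocked call was lost without mouse 1 (adjusted p = 0.0899) and without mouse 2 (0.0625).

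MYC had the lowest log2 difference of the 8 genes, and 312 of the 13755 genes tested had a lower one. It stood at 18.0, 11.5 and 4.23 CPM in LSC replicates 1, 2 and 3 and at 88.2, 45.0 and 67.9 CPM in bulk replicates 1, 2 and 3. LSC replicate 3 was the lowest library, with 58 reads, although its bulk partner was not the lowest of its group. Means were 11.2 ± 6.87 CPM in LSC and 67.0 ± 21.6 CPM in bulk (SD, n = 3 each), a log2 difference of -2.75 (SE 0.53, interval -3.94 to -1.56, limma adjusted p = 0.0235, and 0.00306 with the block). Within mice 1, 2 and 3 it was -2.29, -1.96 and -4.00. The unblocked call was lost without bulk replicate 1 (adjusted p = 0.0925) or bulk replicate 3 (0.0528), without any 1 mouse, and with eBayes run without a trend (0.077). On 2 mice the blocked call held, at an adjusted p of 0.0134, 0.0189 and 2.80e-09 without mouse 1, 2 and 3, with the limit given for NPM1. Under every alternative run the difference lay between -3.20 and -2.13.

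**Figure D2:**
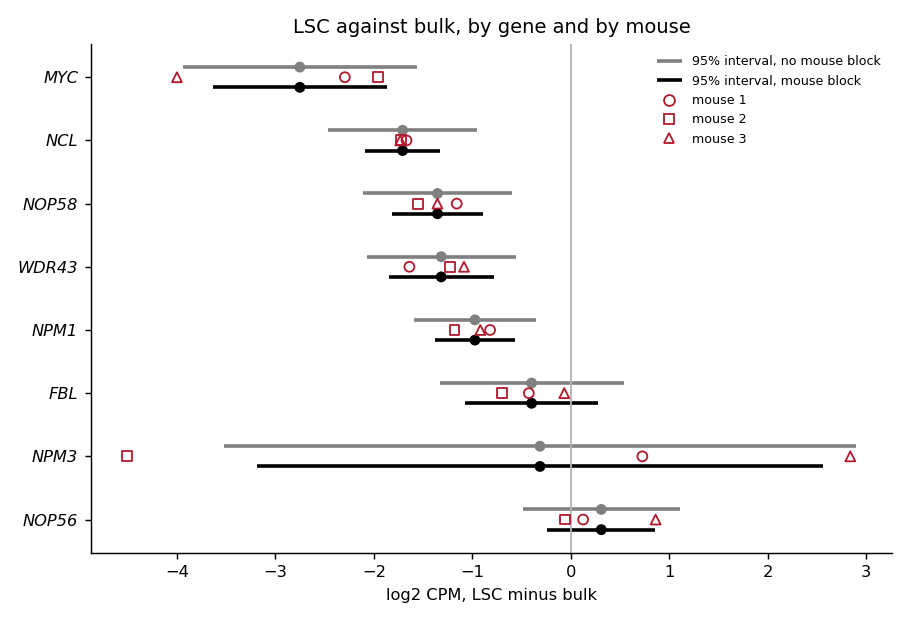
Difference of log2 CPM, LSC minus bulk (horizontal axis), for the 8 genes ordered from the lowest, MYC at -2.75, to the highest, NOP56 at 0.31. Filled points and bars give the estimate and 95% interval without (grey) and with (black) the mouse as a block, and open red symbols the 3 mice, which lie close together for NCL and far apart for NPM3.

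Proliferation genes and markers of other blood lineages differed between the same libraries. For the counts below, 1.33% of all genes were lower and 2.71% higher, and 7.71% and 8.25% with the block. Of 10 listed genes of the G2 and M phases, 5 were lower in LSC (7 with the block), and their summed level was 889 to 1511.5 CPM in LSC and 3594 to 7063 CPM in bulk. Their median log2 difference was -1.49, -1.22 and -2.85 in mice 1, 2 and 3. MYC was lowest in mouse 3 as well (-4.00), while NPM1 (-1.18) and NOP58 (-1.55) were lowest in mouse 2 and WDR43 (-1.64) in mouse 1. NCL was nearly even (-1.67, -1.72 and -1.73). Medians of erythroid (-3.43), monocyte (-1.79) and B lineage markers (-3.63) were lowest in mouse 3 too. That of granulocyte markers was lowest in mouse 2 (-2.58), and that of T and NK cell markers in mouse 1 (-0.24). Of 7 erythroid markers, 3 were lower in LSC (5 with the block), summing to 15.0 to 72.7 CPM in LSC and 119 to 363 CPM in bulk. Of 5 monocyte markers 1 was lower (4 with the block), with 912 to 2510 CPM in LSC and 3264 to 5201 CPM in bulk. Of 7 tested B lineage markers 2 were lower (3 lower and 1 higher with the block), with 126 to 205 CPM in LSC and 132 to 1014 CPM in bulk. Granulocyte markers summed to 74.3 to 1138 CPM in LSC and 169 to 3668 CPM in bulk, and 0 of 8 passed in limma, at an adjusted or an unadjusted p of 0.05, or with voom (6 with the block). T and NK cell markers, at 92.7 to 122 CPM in LSC and 75.3 to 98.3 CPM in bulk, had 0 of 4 past the threshold by each of these tests. No listed marker was at 0 throughout a group. The part of these differences in the values of NPM1, NCL, NOP58, WDR43 and MYC was not tested.

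Ratios between 2 transcripts of 1 library do not depend on how libraries were scaled, and were compared next. They still contain the lengths of both genes, so only their difference between populations was read. The log2 ratio of NOP56 to NPM1 was -2.22, -2.39 and -2.16 in LSC replicates 1, 2 and 3, against -3.16, -3.51 and -3.94 in bulk replicates 1, 2 and 3. NOP56 was thus higher relative to NPM1 in LSC, by 1.28 on the log2 scale (exact permutation p = 0.1, two-sided, n = 3 each, and 0.175 adjusted over 7 ratios). With 3 libraries against 3 the smallest p this test allows is 0.1, so no ratio could pass a threshold of 0.05. The ratios of NCL, NOP58 and MYC to NPM1 were lower in every LSC library than in every bulk library, by -0.73, -0.38 and -1.78 on the log2 scale (exact p = 0.1 and adjusted p = 0.175 for each). NCL to NPM1 stood at 1.21, 1.36 and 0.66 in LSC and 2.06, 1.91 and 1.47 in bulk. For FBL, WDR43 and NPM3 the ratios overlapped between populations, with exact p of 0.3, 0.2 and 0.5. Permuting within mice, where the smallest p is 0.25, gave 0.25 for 6 ratios and 0.75 for NPM3.

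NOP56 and NOP58, partners in 1 particle, were set against each other after their values had been seen, so no test is given. The ratio of NOP56 to NOP58 in CPM was 1.43, 1.57 and 1.43 in LSC replicates 1, 2 and 3 and 0.589, 0.559 and 0.308 in bulk replicates 1, 2 and 3. The 3 LSC values were nearly equal, and bulk replicate 3 was the lowest of all libraries.

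**Figure D3:**
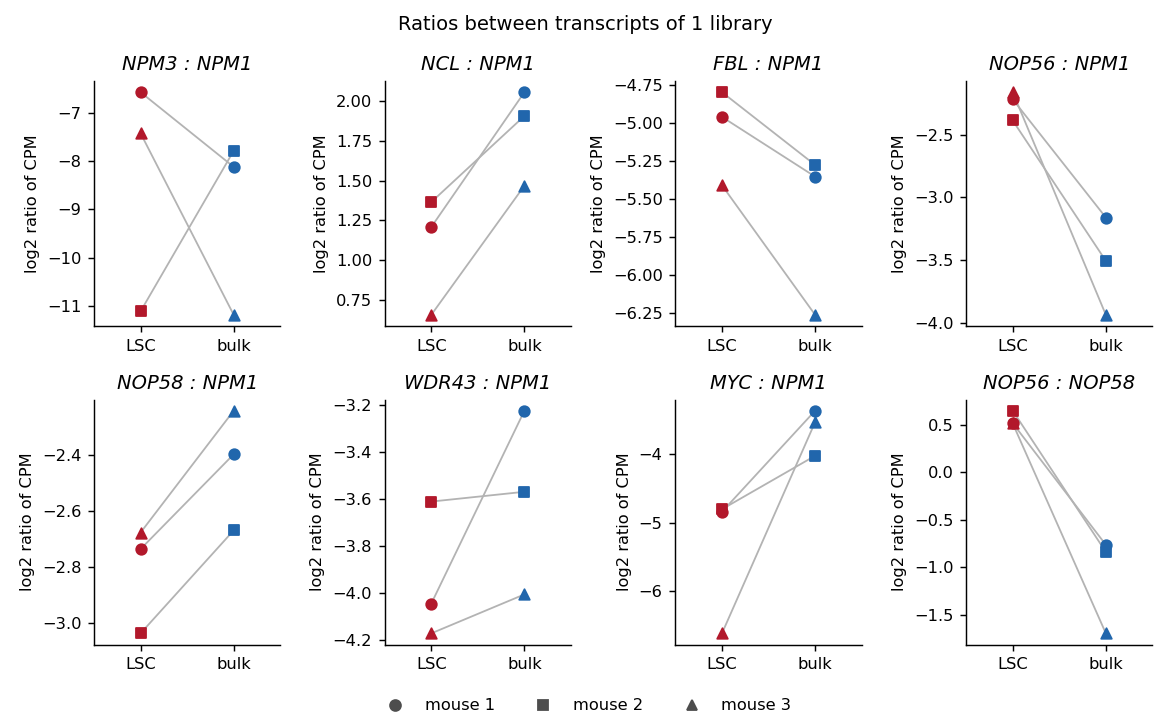
Log2 ratio of the CPM of 7 genes to NPM1, and of NOP56 to NOP58, within each library (vertical axes, not starting at 0), with LSC left in red, bulk right in blue and grey lines joining libraries of 1 mouse. The ratios of NOP56 to NPM1 and of NOP56 to NOP58 are higher in each LSC library than in each bulk library, and those of NCL, NOP58 and MYC to NPM1 are lower.

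By the shape of their levels over the 6 libraries, NCL lay nearest to WDR43 and NPM1 to NOP58. The measure was the root mean square difference of log2 CPM after each gene was centred on its own mean, at 0.24 for NCL and WDR43 and 0.25 for NPM1 and NOP58. Among 13109 other genes the nearest to NPM1 were EMB, SMARCC1, RCC2, SRRM1 and MYCBP2, at 0.06 to 0.10. EMB, which encodes embigin, had 253, 152 and 187 CPM in LSC replicates 1, 2 and 3 and 410, 323 and 345 CPM in bulk replicates 1, 2 and 3. Like NPM1, it was lowest in LSC replicate 2 and highest in bulk replicate 1. The nearest to NCL were the replication gene MCM10, the readthrough row ARHGAP19-SLIT1, the chromatin remodeller gene CHD7, the carboxypeptidase gene CPD and CLSPN, a replication checkpoint adaptor, at 0.14 to 0.18. The nearest to MYC were SYNE2, PTPN13, GPSM2, ELOVL6 and HMGN5, at 0.27 to 0.38, farther from it than the first neighbours of NPM1 and NCL were from theirs. All of these named neighbours of NPM1, NCL and MYC lay closer to them than the nearest member did. Such likeness over 6 libraries is a description and carries no test.

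The lists were widened to other genes of ribosome assembly and of RNA polymerase I. Of 103 tested genes outside the 8, 0 passed in either direction without the block in limma, nor with voom, and 14 were lower and 5 higher at an unadjusted p under 0.05, where 10.1% and 10.2% of all genes lay. With the block 10 were lower in LSC (9.71%, against 7.71% of all genes) and 5 higher (4.85%, against 8.25%). Their median log2 difference was -0.26, and -0.37, -0.39 and -0.16 in mice 1, 2 and 3. Below zero were 71 of the 103, against 50.2% of all genes.

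Among 16 small nucleolar ribonucleoprotein genes the median was -0.22, and NOP58 and NOLC1, a chaperone of these particles, had the largest moderated statistics. NOLC1 averaged 86.9 ± 30.1 CPM in LSC and 143 ± 24.0 CPM in bulk (SD, n = 3 each, limma adjusted p = 0.222, and 0.0374 with the block). Unlike NOP58, its groups overlapped. Core proteins of the H/ACA particle, which pseudouridylates ribosomal RNA, differed in sign: log2 differences were -0.68 for the enzyme gene DKC1, 0.04 for GAR1, 1.01 for NHP2 and 1.04 for NOP10. They were uneven over mice 1, 2 and 3, at -1.37, -0.49 and -0.19 for DKC1 and 0.06, -0.56 and 0.60 for GAR1. NHP2 had 0.04, 0.12 and 2.86, so its value came mainly from mouse 3, and NOP10 had 1.33, 0.21 and 1.56. None of the 4 passed with or without the block, and they were named after their values were seen. NHP2L1, the protein that binds the box C/D RNA first, had a log2 difference of 0.00.

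In the small-subunit processome, 37 genes had a median of -0.28, and WDR43 and AATF led by moderated statistic. AATF, a factor of early small-subunit processing, had 21.2, 18.4 and 6.13 CPM in LSC and 67.1, 56.3 and 21.2 CPM in bulk, lower by a log2 difference of 1.61 to 1.79 within each mouse (limma adjusted p = 0.147, and 0.00363 with the block). With the block RRP12, UTP3 and WDR43 also passed as lower, and UTP6 as higher (log2 difference 1.12). In large-subunit assembly, 38 genes had a median of -0.24, led by RSL1D1, a nucleolar factor related to ribosomal protein L1, and the helicase gene DDX51. RSL1D1 averaged 219 ± 42.4 CPM in LSC and 393 ± 64.4 CPM in bulk, and DDX51 53.4 ± 18.0 CPM in LSC and 23.6 ± 7.06 CPM in bulk (SD, n = 3 each). With the block 4 of the 38 passed as lower and 2 as higher, RSL1D1 at an adjusted p of 0.0177 and DDX51 at 0.0129. Over all genes, 7.71% were lower and 8.25% higher with the block.

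RNA polymerase I genes had 2 lower and 2 higher of 16 with the block, against 7.71% and 8.25% of all genes. TCOF1, which encodes treacle, the scaffold of the polymerase at ribosomal DNA, averaged 4.79 ± 2.25 CPM in LSC and 13.5 ± 2.54 CPM in bulk (limma adjusted p = 0.0923, and 0.0213 with the block). The subunit gene TWISTNB was lower as well. In the other direction, TAF1A, a subunit of the promoter selectivity factor, averaged 28.4 ± 9.10 CPM in LSC and 13.0 ± 1.61 CPM in bulk. The polymerase subunit gene CD3EAP had a log2 difference of 1.15, but it overlaps a gene on the other strand, and reads of the 2 cannot be divided without strand information. Cytosolic ribosomal proteins, the end users of this pathway, had a median of 0.04 over 78 symbols. None passed without the block in limma, or with voom, and 2 of 78 were lower and 8 higher at an unadjusted p under 0.05, against 10.1% and 10.2% of all genes. With the block 1 was lower (RPL7) and 8 higher, against 7.71% and 8.25% of all genes. RPS20, a protein of the small subunit, averaged 256 ± 70.4 CPM in LSC libraries, against 128 ± 13.7 CPM in bulk libraries (SD, n = 3 each, limma adjusted p = 0.106, and 0.019 with the block). Ribosomal protein rows may share reads with processed pseudogenes.

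**Figure D4:**
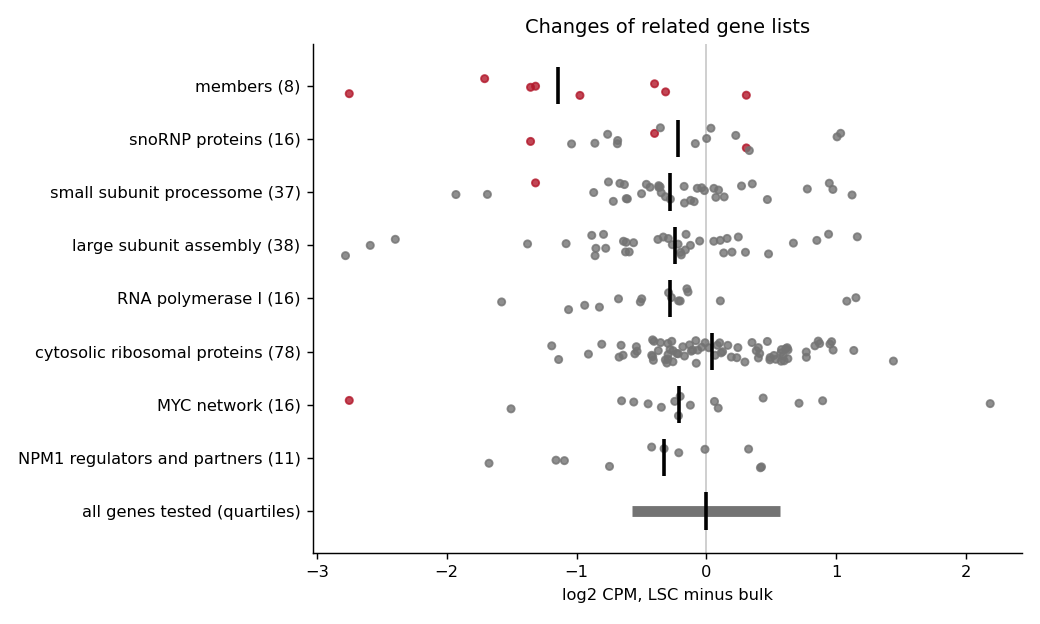
Difference of log2 CPM, LSC minus bulk (horizontal axis), for each tested gene of the lists named at the left, with the number of genes in brackets. Red points are the 8 members, grey points other genes and black ticks medians, and the grey bar at the bottom spans the quartiles of all 13755 genes; the assembly lists have medians of -0.28 to -0.22 against -1.14 for the members.

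In the MYC network, 2 of 16 tested genes passed, MYC itself as lower and MYCL as higher. Over all genes, 1.33% were lower and 2.71% higher. MYCL, a MYC paralogue that also dimerizes with MAX, had 19.3, 21.1 and 20.2 CPM in LSC replicates 1, 2 and 3, against 4.62, 5.59 and 3.33 CPM in bulk replicates 1, 2 and 3. It was thus nearly even within each population and higher in LSC, with a log2 difference of 2.19 (SE 0.38, limma adjusted p = 0.0161, and 0.00411 with the block). The unblocked call was lost without LSC replicate 1 (adjusted p = 0.0544), LSC replicate 3 (0.0576) or bulk replicate 1 (0.0502), with the log2 difference at 2.19 to 2.22. It was also lost without any 1 mouse. On 2 mice the blocked call held, at an adjusted p of 0.0299, 0.0346 and 6.10e-05 without mouse 1, 2 and 3, with the limit given for NPM1. MAX, the shared partner, had a log2 difference of 0.71 that did not pass (adjusted p = 0.274, and 0.0846 with the block). The MYC antagonists MXD1, MXD3, MXD4, MXI1 and MNT had differences of -0.65, -1.50, 0.90, -0.56 and 0.44, none of which passed with or without the block. FBXW7, the ubiquitin ligase subunit that marks MYC for degradation, stood at -0.24.

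Of 11 tested regulators and partners of NPM1, 1 passed, as lower, against 1.33% of all genes. BRCA1, a repair and ubiquitin ligase protein whose complex modifies NPM1, averaged 44.1 ± 12.6 CPM in LSC and 137 ± 9.08 CPM in bulk, lower by a log2 difference of -1.67 (SE 0.29, limma adjusted p = 0.0169). The unblocked call was lost without LSC replicate 1 (adjusted p = 0.0579), LSC replicate 3 (0.0637), bulk replicate 1 (0.0735) or bulk replicate 2 (0.0513). It was also lost without any 1 mouse, and with eBayes run without a trend (0.0675). With the block BRCA1 passed (adjusted p = 0.00328). On 2 mice the blocked call held, at an adjusted p of 0.0292, 0.0192 and 3.89e-07 without mouse 1, 2 and 3, with the limit given for NPM1. The partner gene of BRCA1, BARD1, and the kinase gene ROCK2 also passed with the block, at log2 differences of -1.09 and -1.16. With the block 3 of the 11 were thus lower, against 7.71% of all genes.

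The authors' deposited table gives its own test for the same libraries, with log2 fold changes coded bulk minus LSC, so that positive values mean lower in LSC. In the authors' deposited table the value was 2.73 for MYC (p = 0.00224, false discovery rate 0.143), 1.71 for NCL (p = 0.0212, rate 0.294) and 0.97 for NPM1 (p = 0.0901, rate 0.479). It was 1.35 for NOP58 (p = 0.0214, rate 0.294) and 1.32 for WDR43 (p = 0.0284, rate 0.333) by the authors' test. FBL had 0.40, NOP56 -0.31 and NPM3 -0.13, so NPM3 was slightly higher in LSC there, unlike in the limma fit. No gene of the authors' deposited table had a rate under 0.05, and the lowest was 0.0813.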

How the data were processed

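Per the labels' protocols, a NuGEN Ovation kit amplified the RNA. Of the authors' steps, RSEM, Bowtie2, edgeR and the hg19 build are listed, per the submitters' processing notes, with neither version nor order. The organism label names the mouse host, while symbols and build are human. Each library's column, as deposited by the authors, holds log2 CPM with a small prior: all 6 columns share a floor of 0.0197 CPM and rise in whole steps. Reads were recovered from these steps after removal of the floor (100% whole within 0.1), and CPM from the reads. The deposited table also holds the authors' own comparison: a log2 fold change, a score (likelihood ratio), and a p-value with its false discovery rate.

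A gene was tested if 3 or more libraries reached 1 CPM (13755 of 13892, all 8 members included). The deposited log2 values were fitted in limma 3.58.1 under R 4.3.3, by lmFit and a trended eBayes, two-sided and without a block. Adjusted p is Benjamini-Hochberg over all genes tested, threshold 0.05. Deviations from group means of libraries of 1 mouse correlated at 0.33, 0.35 and 0.30 over genes, and the mouse pairs the samples by design, so blocked values stand beside the results. Single ratios were tested by exact permutation in scipy 1.17.1. The fit without a block was tried on simulated reads with the same spread setting for all genes and no mouse effect. That trial does not cover the pairing or the spread of these libraries.

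Members and gene lists were chosen with earlier results of these data known. Named genes are the members, list genes past the threshold (else the 2 largest moderated statistics) and the 5 nearest profiles to NPM1, NCL and MYC, leaving out rows without a symbol or that can identify a person; 1 gene that the rule names is not reported here, and others are said to be named after their values were seen, or passed with the block. Of a list, counts and medians only are given. No 2 libraries agreed within sampling noise (chi-square per degree of freedom of 69.8 or more). Amplified reads are not independent molecules, so intervals cover counting error only. Alternatives were other pseudocounts (1 and 5 CPM), filters, scalings and variance models, voom on the recovered reads, the block, and leaving out each library or mouse. The block combined with voom, with scaling outside MTRNR2L or on 2 mice was added after seeing the data. On 2 mice the block leaves little spread within a gene, so those p-values rest mostly on variance shared over genes.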

Additional observations from a re-analysis of the deposited data

How the results depend on the processing

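The number of members called lower, 2 as reported, was 4 with quantile normalization, 0 with eBayes without trend, and 5 with the replicate block, alone, with voom or with scaling outside MTRNR2L. Leaving out 1 library or mouse gave 0 to 2 members without the block, 0 without bulk replicate 1, and 3 to 5 with it. No member was called higher in any setting. Over all genes, 183 lower and 373 higher as reported, the block gave 1060 lower and 1135 higher, 1217 and 1216 with voom, and 945 and 1252 with scaling outside MTRNR2L. Genes called lower were 302 and 280 at pseudocounts of 1 and 5 CPM, and eBayes without trend gave 54 lower and 197 higher. Leaving out a library or mouse gave 0 to 169 lower and 37 to 346 higher without the block, and with the block on 2 mice 296 to 1567 lower (344 without mouse 1) and 386 to 1747 higher. Without mouse 3 the blocked calls rose, to 1567 lower and 1747 higher, although fewer samples were used. The cause of these shifts was not tested. NPM1, NCL, NOP58, WDR43, MYC, FBL and NOP56 kept their direction under all 24 alternatives, and they were called in 5, 16, 12, 4, 18, 0 and 0 of them, where NCL and MYC alone were called as reported. NPM3, not called in any, turned positive at pseudocounts of 1 (0.0077) and 5 CPM (0.038), without LSC replicate 2 (1.23), bulk replicate 1 (0.23), bulk replicate 2 (0.24) or mouse 2 (1.78, with and without the block), and with the block and voom (0.27). Leaving out a library or mouse gave it -1.89 to 1.78. Its ratio to NPM1, 0.66 as reported, was -0.24 without LSC replicate 1 and -0.42 without bulk replicate 3, within -0.42 to 2.03 over single libraries. The median log2 difference of all genes lay between -0.05 and 0.05 under every scaling run. NPM3 had 2 to 73 reads a library, with a spread within LSC beyond the counting error of independent reads. With 3 libraries a group, single libraries decide calls near the threshold, and WDR43 was called only with the block.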
